A study of Rattus norvegicus with 8 samples.

Results

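Mitosis is driven by a set of genes whose products switch on cyclin-dependent kinase 1, build the spindle, check that every chromosome is attached, and then destroy the cyclins so that the cell can divide. This account describes 44 such genes in N27 cells, an immortalised line made from rat embryonic midbrain, after exposure to neurotoxins. The members are cyclins and their kinase, mitotic kinases, spindle checkpoint, kinetochore, passenger complex, motor, anaphase and cytokinesis genes, the transcription factors Foxm1 and Mybl2, and the proliferation genes Mki67 and Top2a. They were chosen by name, with earlier results of these arrays known, and matched to probes through the gene name in the array files. Of the 44, 43 had a probe among the 26183 gene names of the array (Cenpe had none under that name), and 42 were tested among 16908 genes. The probe of Hmmr, a hyaluronan receptor that also binds the spindle, was well above background on 0 of 8 arrays and was not tested. The tested probes of the other 42 members were well above background on all 8 arrays, so none entered through 1 group alone.

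RNA was measured on 8 single-colour arrays in 4 groups of 2: control cells, cells given manganese (Mn, 150 µM for 48 h), cells given MPP+ (250 µM for 48 h), a known inhibitor of respiratory complex I, and cells labelled 3-NPA. The last is read here as 3-nitropropionic acid, which blocks succinate dehydrogenase, and the labels used here give no dose, time or vehicle for it. All groups were the same N27 line, described in the labels as dopamine producing, so the effects of clone and of immortalisation are shared by all arrays. The labels do not say whether the 2 arrays of a group came from separate cultures, so the p-values measure the spread between arrays, which may be technical. All arrays lay on 1 slide, each group held its own positions on it, and the 3-NPA images were extracted in a later run than the other 6, so slide position, and for 3-NPA the extraction run, cannot be told apart from the group. Of 58717 spots that were not controls, 32711 to 41354 were well above background on an array, and 0 were saturated. The labelled cell type was checked on its markers: Th, the rate-limiting enzyme of dopamine synthesis, and Slc18a2, the vesicular monoamine transporter, were well above background on all 8 arrays, Ddc on 6 and the dopamine transporter Slc6a3 on 0. Of the 11 dopaminergic markers on the array, 3 were well above background on all 8 arrays and 4 on none (Slc6a3 and the transcription factors Lmx1a, En2 and Foxa2). Of 9 neuronal markers on the array, 2 (Tubb3 and Map2) were well above background on all 8 arrays and 6 on none. Of 6 progenitor markers, 2 (Nes and Vim) were well above background on all 8 arrays and 2 (Sox2 and Pax6) on none. In RNA from a whole culture, fewer cells in mitosis and less RNA per cell cannot be told apart.

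As background, most genes of mitosis are transcribed late in the cell cycle, from G2 into mitosis, and are held silent in resting cells by the DREAM complex. Their promoters are known for a pair of short elements, the CHR (cell cycle genes homology region, TTTGAA), to which the DREAM and MuvB complexes bind, and CCAAT boxes, to which NF-Y binds. Foxm1 and Mybl2 act through the same MuvB complex to turn these genes on, and the stress-induced inhibitor p21 acts through DREAM to turn them off.

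The promoters of 5 members are shown because they hold CCAAT boxes, and all but that of Ccnb1 CHR letters, in members that were and were not called with the toxins. Each run gives the 200 bases before the RefSeq start on GRCr8, on the strand of the gene, in lower case with CHR (TTTGAA or its reverse complement TTCAAA) and CCAAT (or ATTGG) in capitals. Ccnb1 (chr2:33655226-33655425, minus strand) and Cdc20 (chr5:137255800-137255999, minus strand) are members that fell with 3-NPA, as did Pttg1 (chr10:28406327-28406526, minus strand). Cdk1 (chr20:19265093-19265292, plus strand) and Mki67 (chr1:199952594-199952793, minus strand) are members that were not called in the main fit.
Ccnb1: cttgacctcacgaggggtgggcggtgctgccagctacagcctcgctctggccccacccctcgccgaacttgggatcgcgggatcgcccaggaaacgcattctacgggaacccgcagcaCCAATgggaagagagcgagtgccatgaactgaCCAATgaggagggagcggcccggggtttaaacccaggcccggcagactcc
Cdc20: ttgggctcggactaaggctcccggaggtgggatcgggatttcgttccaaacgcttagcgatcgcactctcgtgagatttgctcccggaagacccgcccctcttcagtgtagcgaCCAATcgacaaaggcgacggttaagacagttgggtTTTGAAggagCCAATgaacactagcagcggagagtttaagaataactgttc
Pttg1: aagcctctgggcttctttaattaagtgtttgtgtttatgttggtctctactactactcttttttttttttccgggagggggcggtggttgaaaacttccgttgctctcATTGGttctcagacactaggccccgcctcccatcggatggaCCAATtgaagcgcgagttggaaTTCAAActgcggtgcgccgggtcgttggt
Cdk1: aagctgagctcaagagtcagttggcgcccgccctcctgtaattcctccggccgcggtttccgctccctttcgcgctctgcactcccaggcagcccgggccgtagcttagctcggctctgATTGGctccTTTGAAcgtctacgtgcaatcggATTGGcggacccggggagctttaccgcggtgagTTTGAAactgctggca
Mki67: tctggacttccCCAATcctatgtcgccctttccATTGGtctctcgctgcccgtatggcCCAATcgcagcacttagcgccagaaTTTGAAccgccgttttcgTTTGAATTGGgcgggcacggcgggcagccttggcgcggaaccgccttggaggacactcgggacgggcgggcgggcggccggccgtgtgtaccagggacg
The Ccnb1 run held 2 CCAAT boxes and no CHR letters, the Cdc20 and Pttg1 runs each held 1 CHR and 2 CCAAT boxes, the Cdk1 run held 2 of each, and the Mki67 run held 2 CHR and 4 CCAAT boxes, of which 1 of each overlap.

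The RefSeq table held a window from 250 bases before to 50 after the start for 37 of the 44 members, and Ccna2, Aurkb, Incenp, Tpx2, Ube2c, Racgap1 and Foxm1 were not matched. TTTGAA on either strand stood in 26 of the 37 member windows (70.3%), against 18.3% of all 33469 windows of the table. CCAAT on either strand stood in 28 (75.7%), against 37.5% of all windows. The letters of both motifs stood in 21 members (56.8%) and in 7.41% of all windows, and 18 members (48.6%) held the CHR letters within 50 bases of the start, against 5.19% of all windows. These are matches of letters, described without a test. Among the 25 tested members with CHR letters, 0 were called lower with Mn, 5 with MPP+ and 8 with 3-NPA, and among the 10 without them 2, 2 and 2 were, beside 3.16%, 6.47% and 16% of all tested genes. Their median log2 changes were -0.14, -0.25 and -0.35 with the letters, and -0.01, -0.16 and -0.03 without. Members with and without the letters were thus both among those called lower. Those without were the same 2 with each toxin, Aurka and Ccnb1, and Cdc20 was among those with the letters. Only TTTGAA was searched, so a promoter without these letters may still hold a variant of the element. The Aurka window held neither motif, and whether its RefSeq start is the one used in N27 cells was not tested.

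Levels below are log2 signals relative to the 75th percentile of each array, which is set to 0, and changes are differences of group means on that scale with the standard error (SE) of the limma fit over all 8 arrays. A gene is called where the limma p-value, adjusted by Benjamini and Hochberg over all 16908 genes, is under 0.05. A level says nothing of another gene's level, since probes differ in brightness.

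Fewer RNAs of this set were called with Mn than with MPP+, and most with 3-NPA, in each case nearly all of them lower than in control. With Mn, 2 of 42 members were called lower and 0 higher, against 3.16% lower and 4.50% higher over all tested genes. With MPP+, 7 were lower and 0 higher, against 6.47% and 7.47% of all genes. With 3-NPA, 13 were lower and 2 higher, against 16% and 22.3% of all genes. As shares of the 42 members, the lower calls were 4.76%, 16.7% and 31.0%. The lower share with Mn was thus close to that over all genes, while those with MPP+ and 3-NPA were above it, and the higher shares were below it with each toxin. How the member shares stood to those of all genes depended on the filter on dim probes. With only probes well above background on all 8 arrays, 14.3% of members against 4.94% of all genes were lower with Mn. The shares were then 19.0% against 9.57% with MPP+, and 38.1% against 22.9% with 3-NPA. With no filter, 26183 genes were tested and the shares called lower were 14.0% of 43 members against 23.0% of all genes with Mn, 16.3% against 28.0% with MPP+, and 25.6% against 31.9% with 3-NPA. The member median then lay above that of all genes with Mn (-0.10 against -0.21) and 3-NPA (-0.16 against -0.27). Without the filter, probes at background level entered, and some of these read lower on treated arrays. Slc6a3, well above background on 0 arrays, read -7.01 and -6.58 in control and -8.37 and -8.30 with 3-NPA. Others did not, such as Elavl3 (-6.61 and -6.65, then -6.69 and -6.63). The part of such probes in the unfiltered shares was not tested. The median change over the members was -0.10 with Mn (all genes -0.02), -0.23 with MPP+ (all genes 0.02) and -0.15 with 3-NPA (all genes 0.05). Which toxin had the lowest median was not settled, since the 3-NPA median was -0.28 with the mean over probes, where that with MPP+ was -0.25. Without control replicate 1 the medians were -0.14, -0.33 and -0.30, and without control replicate 2 they were -0.04, -0.16 and -0.16. The sign was negative for 28, 36 and 32 of the 42 members. These 3 comparisons share the 2 control arrays, so agreement between them in the members they call is in part built in.

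**Figure D1:**
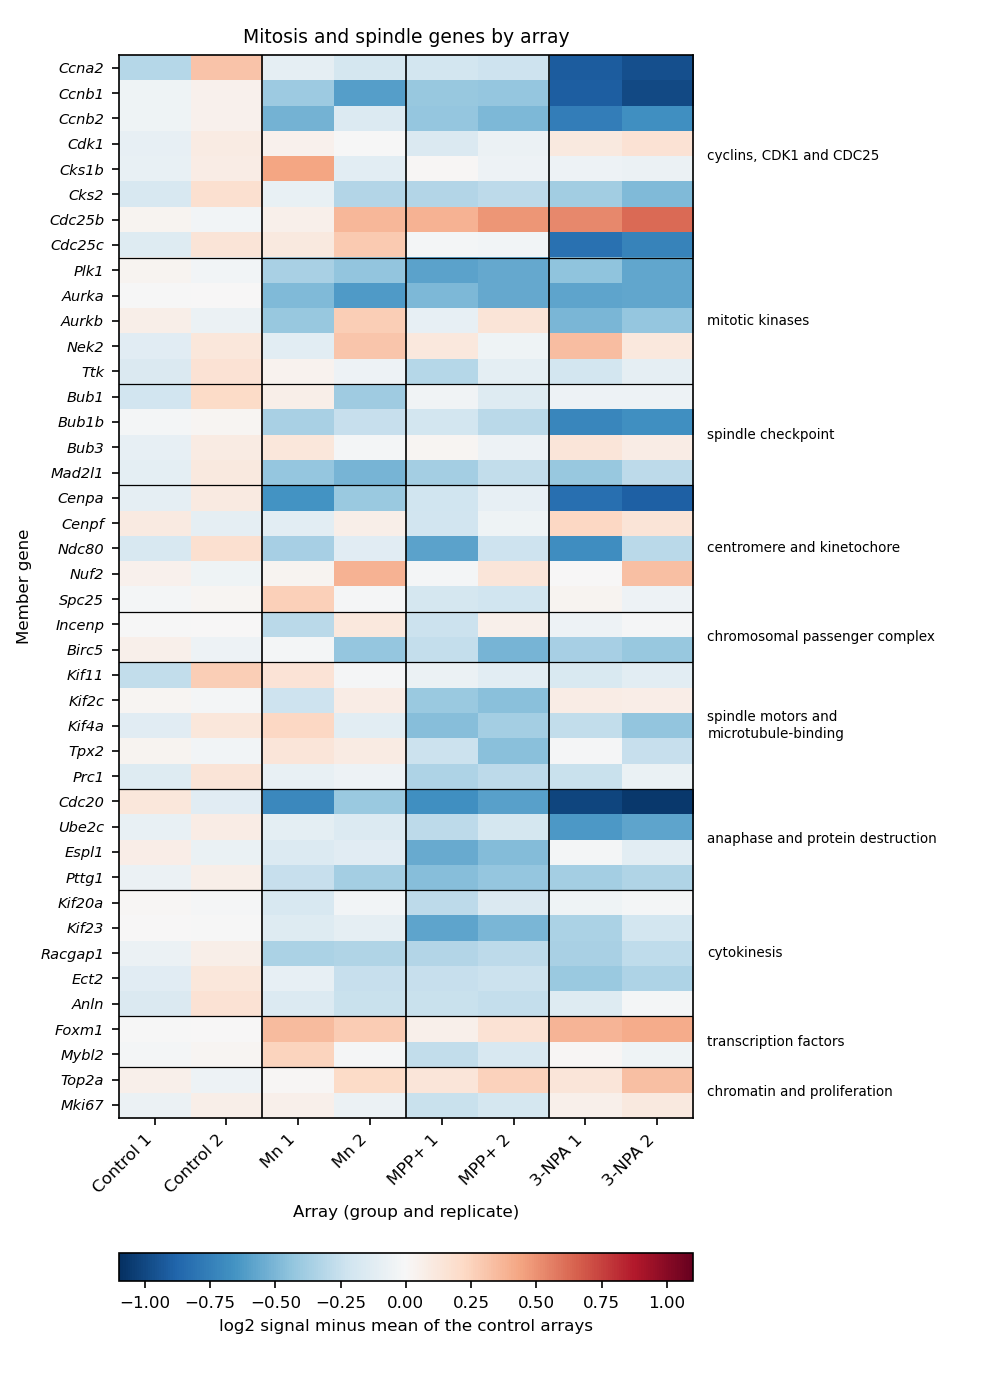
Heat map of the 42 tested members (rows, grouped by role) on the 8 arrays (columns), coloured by log2 signal minus the mean of the 2 control arrays. Blue cells, lower than control, are deepest on the 3-NPA arrays for the cyclins, Cdc20 and Cenpa, and Cdc25b and Foxm1 are red there.

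Counted on each array, members below the control mean numbered 26 and 31 of 42 for Mn, 36 and 36 for MPP+, and 30 and 32 for 3-NPA. The control arrays themselves were not alike, with 29 members below their shared mean on replicate 1 and 13 on replicate 2. Both arrays of the group lay below both control arrays for 14 members with Mn (25.1% of all genes did so), 25 with MPP+ (29.4%) and 22 with 3-NPA (31.9%). Both lay above for 3 members with Mn (25.4% of all genes), 3 with MPP+ (34.0%) and 6 with 3-NPA (39.9%). As a description with no test, the members leaned below control with MPP+ and 3-NPA, and few stood above it with any toxin. Whether the arrays were scaled by the 75th percentile or by the median shifted the median over all genes from 0.02 to 0.13 with MPP+ and from 0.05 to -0.09 with 3-NPA. Under the median, the member counts became 0 lower and 0 higher with Mn, 3 and 1 with MPP+, and 16 and 1 with 3-NPA. Over all genes the calls under the median split into 328 lower and 763 higher (Mn), 621 and 1557 (MPP+), and 3506 and 2599 (3-NPA), against 534 and 761, 1094 and 1263, and 2707 and 3767 under the 75th percentile. The median over the members still lay below that over all genes, at -0.02 against 0.06 (Mn), -0.12 against 0.13 (MPP+) and -0.30 against -0.09 (3-NPA).

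Among the cyclins and the proteins that act on cyclin-dependent kinase 1, 4 of 8 members fell with 3-NPA and 1 rose, while only Ccnb1 was called with Mn or MPP+. Over all tested genes, 16% were called lower and 22.3% higher with 3-NPA. Cyclin B1 (Ccnb1) is the main partner of the kinase in mitosis. It read 3.52 and 3.61 on the control arrays, 3.17 and 2.96 with Mn, 3.15 and 3.14 with MPP+, and 2.66 and 2.57 with 3-NPA. All treated arrays were below both controls, and the 3-NPA arrays were lowest. Its log2 change was -0.50 ± 0.10 with Mn (limma adjusted p = 0.0432), -0.42 ± 0.10 with MPP+ (0.0481) and -0.95 ± 0.10 with 3-NPA (0.00142), the last a 1.94-fold lower level. Its probe lies on the minus strand of chr2:31574809-31575048 (rn4). Ccnb1 was also lower with 3-NPA than with Mn (by 0.45 ± 0.10, limma adjusted p = 0.0238) and than with MPP+ (by 0.53 ± 0.10, 0.0134).

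Cyclin B2 (Ccnb2), its paralog, read 0.80 and 0.90 in control, 0.34 and 0.70 with Mn, 0.43 and 0.36 with MPP+, and 0.10 and 0.18 with 3-NPA. No treated array reached the controls, though the 2 Mn arrays were far apart. The change passed the test with 3-NPA (-0.72 ± 0.14, limma adjusted p = 0.00963) and not with Mn (-0.33 ± 0.14, 0.193) or MPP+ (-0.46 ± 0.14, 0.0781). Cyclin A2 (Ccna2), which acts in S phase and early mitosis, read 3.80 and 4.44 in control, 4.02 and 3.92 with Mn, 3.91 and 3.89 with MPP+, and 3.20 and 3.16 with 3-NPA. Its control arrays differed widely and enclosed the Mn and MPP+ values, whereas both 3-NPA arrays lay below them (-0.94 ± 0.20, limma adjusted p = 0.0139). The other probe of Ccna2 gave -0.87 ± 0.09 with 3-NPA (limma adjusted p over all probes = 0.00142).

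The kinase itself, Cdk1, was not called with any toxin in the main fit. Under quantile normalization it was called higher with 3-NPA (0.32, limma adjusted p = 0.0348). It read 5.45 and 5.63 in control, 5.59 and 5.53 with Mn, 5.38 and 5.48 with MPP+, and 5.65 and 5.70 with 3-NPA. Mn and MPP+ values overlapped the control, and the 3-NPA values stood just above it. The changes were 0.02 ± 0.10, -0.11 ± 0.10 and 0.13 ± 0.10 (limma adjusted p = 0.922, 0.485 and 0.328), from a probe with 10 spots per array. The small kinase-binding subunits Cks1b and Cks2 were also not called in the main fit, with 3-NPA changes of -0.06 ± 0.18 and -0.43 ± 0.15. With the filter on all 8 arrays, Cks2 was called lower with 3-NPA (limma adjusted p = 0.0446). A second Cks1b probe did pass with 3-NPA (-0.67 ± 0.16, limma adjusted p over all probes = 0.0224), so the probes of Cks1b disagreed.

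The CDC25 phosphatases, which remove the inhibitory phosphates from the kinase, went opposite ways with 3-NPA. Cdc25c read -2.30 and -2.02 in control, -2.05 and -1.87 with Mn, -2.18 and -2.19 with MPP+, and -2.98 and -2.90 with 3-NPA. The 3-NPA arrays stood apart from all others, and the change was -0.78 ± 0.12 (limma adjusted p = 0.00532). Against 3-NPA, Cdc25c was higher with Mn by 0.98 ± 0.12 (limma adjusted p = 0.00323) and with MPP+ by 0.76 ± 0.12 (0.00751). Cdc25b read 1.18 and 1.11 in control, 1.20 and 1.51 with Mn, 1.52 and 1.63 with MPP+, and 1.67 and 1.76 with 3-NPA. Every treated array was above both controls, and the rise passed the test with 3-NPA (0.58 ± 0.13, limma adjusted p = 0.0153) and not with Mn (0.21 ± 0.13, 0.35) or MPP+ (0.44 ± 0.13, 0.0732). A dimmer Cdc25b probe gave 0.35 ± 0.19 with 3-NPA and was not called (limma adjusted p over all probes = 0.21).

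**Figure D2:**
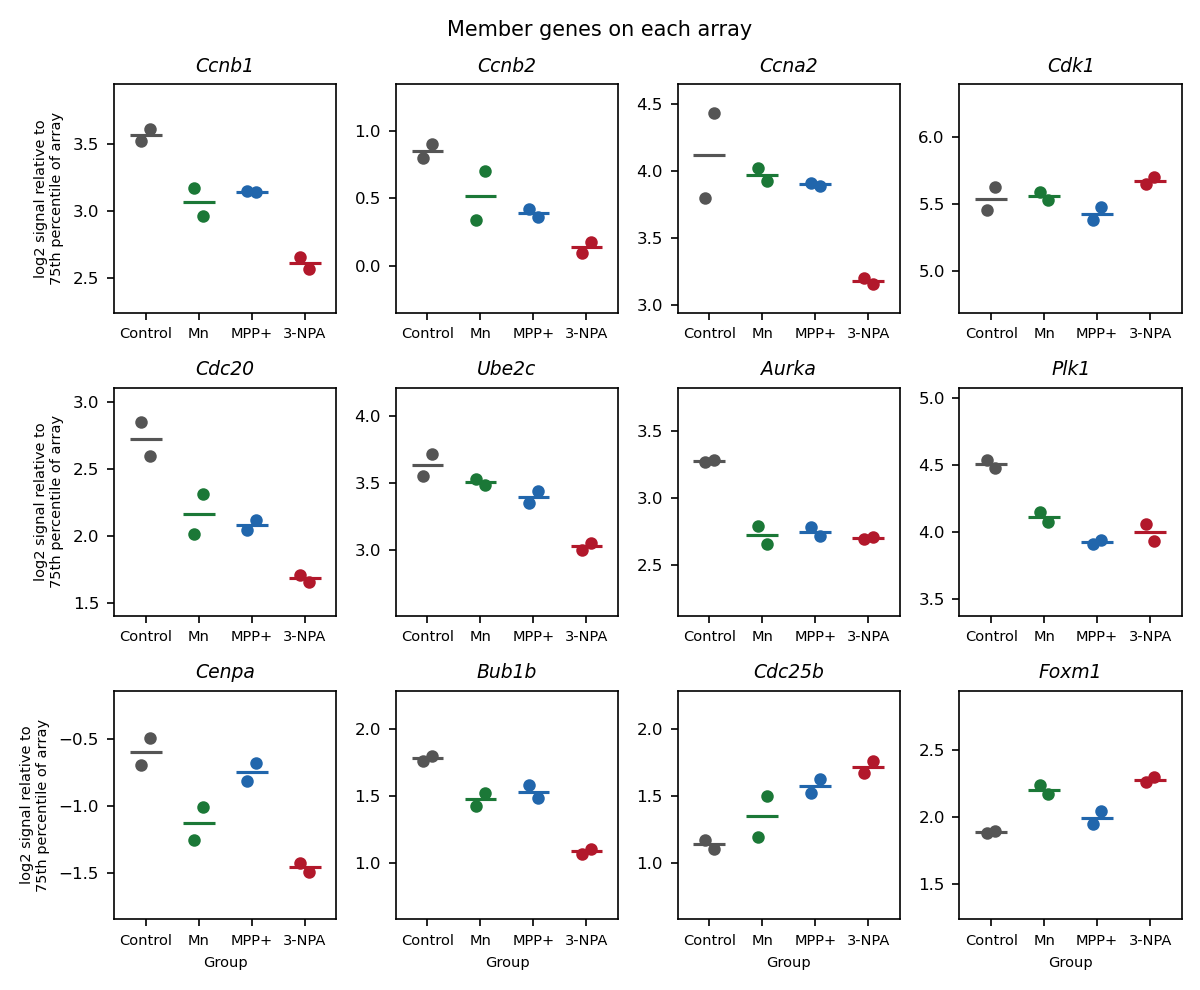
Level of 12 members on each array (points, n = 2 per group, horizontal bars are group means) as log2 signal relative to the 75th percentile of the array, with every panel spanning the same range. Ccnb1, Cdc20 and Aurka lie below control in all toxin groups, Cdk1 stays within 5.38 to 5.70, and Cdc25b and Foxm1 rise with 3-NPA.

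Of the mitotic kinases, Aurora A (Aurka), which matures the spindle poles, was lower with all 3 toxins by nearly the same amount. It read 3.27 and 3.29 in control, 2.79 and 2.66 with Mn, 2.78 and 2.71 with MPP+, and 2.70 and 2.71 with 3-NPA. The controls were close together and every treated array lay below them, with the toxin groups near each other. The change was -0.55 ± 0.09 with Mn (limma adjusted p = 0.0207), -0.53 ± 0.09 with MPP+ (0.0167) and -0.57 ± 0.09 with 3-NPA (0.00462). Aurka was the only member called with all 3 toxins other than Ccnb1. With Mn, both of these calls rested on the full set of arrays: Ccnb1 was not called when any 1 of the 8 arrays was left out, and Aurka was called only without Mn replicate 1.

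Polo-like kinase 1 (Plk1), which acts from mitotic entry to cytokinesis, read 4.53 and 4.47 in control, 4.15 and 4.07 with Mn, 3.91 and 3.94 with MPP+, and 4.06 and 3.93 with 3-NPA. All treated arrays were below the controls. It fell with MPP+ (-0.58 ± 0.09, limma adjusted p = 0.0136) and 3-NPA (-0.51 ± 0.09, 0.00747), and its change with Mn missed the threshold (-0.39 ± 0.09, 0.0562). Aurora B (Aurkb), the kinase of the chromosomal passenger complex, was not called in the main fit (-0.07, 0.02 and -0.47, each ± 0.23). In a fit to the control and 3-NPA arrays alone, Aurkb was called lower with 3-NPA (limma adjusted p = 0.0441). Its partners Incenp and survivin (Birc5) were not called in the main fit, with 3-NPA changes of -0.03 ± 0.17 and -0.39 ± 0.16. Under scaling by the median, Birc5 was called lower with 3-NPA (-0.53, limma adjusted p = 0.0478). The centrosome kinase Nek2 and the checkpoint kinase Ttk were not called either, at 0.23 ± 0.18 and -0.15 ± 0.14 with 3-NPA.

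In the spindle checkpoint, which delays anaphase until all kinetochores are attached, 1 of 4 members was called in the main fit. That call was with 3-NPA, where 16% of all tested genes were called lower. Bub1b, the BubR1 subunit of the mitotic checkpoint complex, read 1.76 and 1.80 in control, 1.43 and 1.53 with Mn, 1.58 and 1.48 with MPP+, and 1.07 and 1.11 with 3-NPA. The groups did not overlap the control, and the 3-NPA arrays were lowest. It fell with 3-NPA (-0.69 ± 0.09, limma adjusted p = 0.00244) and was not called with Mn (-0.31 ± 0.09, 0.0974) or MPP+ (-0.25 ± 0.09, 0.119). Mad2l1, another subunit, read 1.55 and 1.78 in control, 1.24 and 1.15 with Mn, 1.29 and 1.40 with MPP+, and 1.25 and 1.38 with 3-NPA. Every treated array lay below both controls, yet the changes (-0.47, -0.32 and -0.35, each ± 0.11) missed the threshold, with limma adjusted p-values of 0.0631, 0.115 and 0.0533. With the filter on all 8 arrays, Mad2l1 was called lower with Mn and 3-NPA (limma adjusted p = 0.0409 and 0.036).

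Bub3, which carries Bub1 and Bub1b to the kinetochore, read 4.66 and 4.83 in control, 4.87 and 4.72 with Mn, 4.77 and 4.69 with MPP+, and 4.87 and 4.82 with 3-NPA. Each toxin group overlapped the control, while the MPP+ arrays lay below the 3-NPA arrays, and the changes were 0.05, -0.02 and 0.11, each ± 0.10. Under quantile normalization Bub3 was called higher with 3-NPA (0.30, limma adjusted p = 0.0365). Bub1, the kinase paralogous to Bub1b, read 3.31 and 3.74 in control, 3.6 and 3.13 with Mn, 3.49 and 3.39 with MPP+, and 3.48 and 3.47 with 3-NPA. The groups overlapped on this probe, and the changes were -0.16, -0.09 and -0.06, each ± 0.20. A dimmer Bub1 probe was called lower with MPP+ (-0.66 ± 0.15, limma adjusted p over all probes = 0.0394) and 3-NPA (-0.50 ± 0.15, 0.0431), so the Bub1 probes disagreed.

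At the centromere, 1 of 5 tested members was called in the main fit, with 3-NPA, where 16% of all tested genes were called lower. Cenpa, the histone H3 variant that marks the centromere, read -0.70 and -0.49 in control, -1.25 and -1.0 with Mn, -0.81 and -0.68 with MPP+, and -1.42 and -1.49 with 3-NPA. The MPP+ arrays overlapped the controls, whereas both other toxin groups lay below them. It fell with 3-NPA (-0.86 ± 0.13, limma adjusted p = 0.004) and missed the threshold with Mn (-0.53 ± 0.13, 0.0621), and it was higher with MPP+ than with 3-NPA by 0.71 ± 0.13 (0.0101). The outer kinetochore genes Ndc80, Nuf2 and Spc25, whose proteins sit in 1 microtubule-binding complex, were not called, with 3-NPA changes of -0.49 ± 0.21, 0.17 ± 0.17 and -0.01 ± 0.11. Ndc80 was called lower with MPP+ and 3-NPA only in the fit with the replicate number as a block (limma adjusted p = 0.0498 and 0.0138). Cenpf, a large kinetochore protein, was not called either (0.18 ± 0.12).

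Of the genes that run and end anaphase, 3 of 4 were called lower with MPP+ and 3 of 4 with 3-NPA, beside 6.47% and 16% of all tested genes. The calls with MPP+ were lost when either MPP+ array was left out. Cdc20, the activator of the anaphase promoting complex, read 2.85 and 2.59 in control, 2.01 and 2.31 with Mn, 2.05 and 2.12 with MPP+, and 1.71 and 1.66 with 3-NPA. All treated arrays were below both controls. The change was -0.56 ± 0.14 with Mn (limma adjusted p = 0.0679), -0.64 ± 0.14 with MPP+ (0.0344) and -1.04 ± 0.14 with 3-NPA (0.00283). With 3-NPA this was 2.05-fold, the largest change of the set and the only one of at least 2-fold. It was called with 3-NPA under all 22 alternative settings. Its probe lies on the minus strand of chr5, within 138913267 to 138914237 (rn4).

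Ube2c, the ubiquitin-conjugating enzyme that works with the anaphase promoting complex, read 3.55 and 3.72 in control, 3.53 and 3.49 with Mn, 3.35 and 3.45 with MPP+, and 3.01 and 3.06 with 3-NPA. It fell with 3-NPA (-0.60 ± 0.10, limma adjusted p = 0.00529) and was not called with Mn (-0.13 ± 0.10) or MPP+ (-0.24 ± 0.10). Only the 3-NPA arrays stood well apart from control, on a probe with 1 spot per array. Securin (Pttg1), the inhibitor that holds separase, read 6.32 and 6.44 in control, 6.13 and 6.01 with Mn, 5.91 and 5.95 with MPP+, and 6.01 and 6.05 with 3-NPA. Its treated arrays were all below control, and it was called with MPP+ (-0.44 ± 0.09, limma adjusted p = 0.0313) and 3-NPA (-0.35 ± 0.09, 0.0301). Separase (Espl1), the protease that cuts cohesin, read 2.88 and 2.73 in control, 2.65 and 2.68 with Mn, 2.25 and 2.33 with MPP+, and 2.78 and 2.68 with 3-NPA. The MPP+ arrays were lowest, and the 3-NPA arrays overlapped the control. Espl1 fell with MPP+ (-0.51 ± 0.10, limma adjusted p = 0.0226), changed by -0.07 ± 0.10 with 3-NPA, and was lower with MPP+ than with 3-NPA by a tested difference of -0.44 ± 0.10 (0.0179).

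Among the cytokinesis genes, 1 of 5 was called lower with MPP+ and 2 with 3-NPA, beside 6.47% and 16% of all tested genes. Kif23, the motor of the central spindle, read 2.39 and 2.39 in control, 2.25 and 2.29 with Mn, 1.81 and 1.88 with MPP+, and 2.04 and 2.19 with 3-NPA. It was lowest on the MPP+ arrays and below control on all treated arrays. The fall passed the test with MPP+ (-0.54 ± 0.09, limma adjusted p = 0.0174) and not with 3-NPA (-0.28 ± 0.09, 0.0585), and Kif23 was higher with Mn than with MPP+ (by 0.42 ± 0.09, 0.0437). Its partner Racgap1 read 2.02 and 2.15 in control, 1.74 and 1.75 with Mn, 1.76 and 1.80 with MPP+, and 1.73 and 1.80 with 3-NPA. The treated arrays lay close together and below control, and the change was called with 3-NPA (-0.32 ± 0.09, limma adjusted p = 0.0347) while Mn (-0.34 ± 0.09, 0.0794) and MPP+ (-0.30 ± 0.09, 0.0769) missed the threshold. Ect2, the exchange factor that activates RhoA at the cleavage site, was called with 3-NPA (-0.37 ± 0.12, limma adjusted p = 0.0485). Ect2 lost that call under 16 of the 22 alternative settings. Kif20a and anillin (Anln) were not called, at -0.03 ± 0.10 and -0.08 ± 0.13 with 3-NPA.

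None of the 5 spindle motors and microtubule-binding proteins was called against control with any toxin in the main fit. All 5 had negative changes with MPP+, from -0.43 ± 0.12 for the microtubule depolymerase Kif2c (limma adjusted p = 0.0665) to -0.09 ± 0.18 for the bipolar spindle motor Kif11. The chromokinesin Kif4a (-0.42 ± 0.16), the spindle assembly factor Tpx2 (-0.35 ± 0.12) and the microtubule bundler Prc1 (-0.31 ± 0.12) lay between. With 3-NPA the same genes ran from -0.35 to 0.08. Kif2c was lower with MPP+ than with 3-NPA by a tested difference of -0.51 ± 0.12 (limma adjusted p = 0.0239). With the filter on all 8 arrays, Kif2c was called lower with MPP+ than in control (limma adjusted p = 0.0418). Without control replicate 1 the Kif11 change with 3-NPA was -0.41.

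Foxm1, the factor that drives late cell cycle genes, was higher with 3-NPA while many of those genes were lower. It read 1.88 and 1.90 in control, 2.24 and 2.17 with Mn, 1.95 and 2.05 with MPP+, and 2.26 and 2.30 with 3-NPA. All treated arrays were above both controls, least with MPP+. The change was called with 3-NPA (0.39 ± 0.09, limma adjusted p = 0.0156) and not with Mn (0.32 ± 0.09, 0.0838) or MPP+ (0.11 ± 0.09, 0.433). A second Foxm1 probe also passed with 3-NPA (0.77 ± 0.23, limma adjusted p over all probes = 0.0439). Under scaling by the median the Foxm1 rise with 3-NPA was 0.25 and was not called. Mybl2 was not called (0.12, -0.22 and -0.02, each ± 0.11). The proliferation marker Mki67 was not called either (-0.0034, -0.22 and 0.08, each ± 0.10), on any of its 3 probes, nor was topoisomerase Top2a (0.11, 0.20 and 0.23, each ± 0.12). Under quantile normalization Mki67 was called higher with 3-NPA (0.29, limma adjusted p = 0.038).

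**Figure D3:**
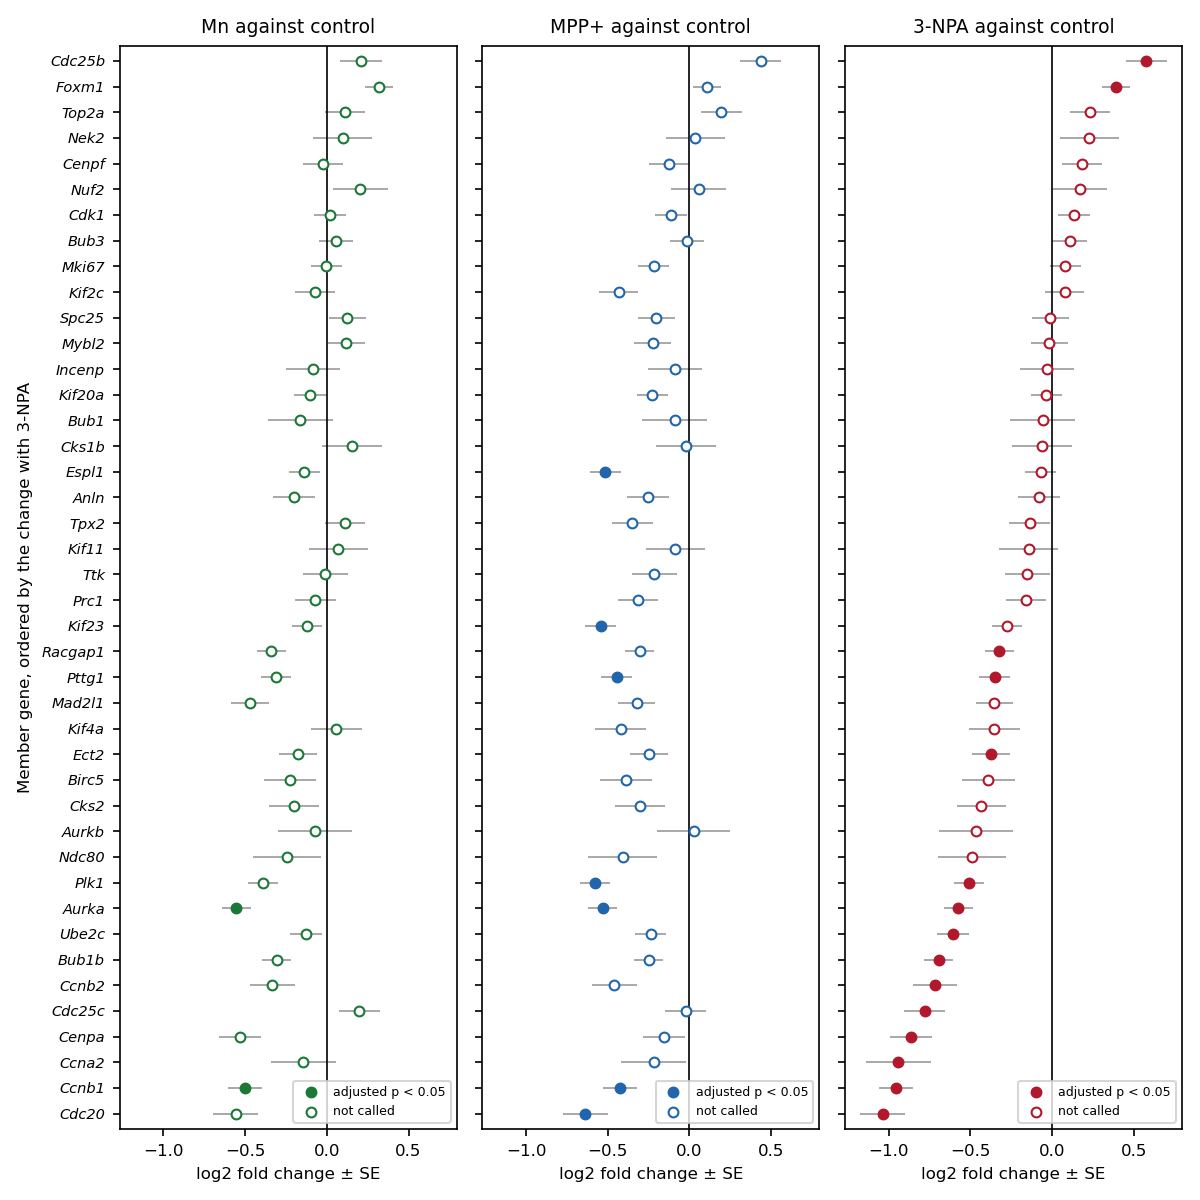
Log2 fold change against control (points, bars are ± SE of the limma fit) for the 42 tested members under Mn, MPP+ and 3-NPA, in the same row order in each panel. Filled points passed an adjusted p of 0.05 (2, 7 and 15 members), and the order set by 3-NPA is not kept under MPP+, where Espl1, Kif23 and Plk1 are among the lowest.

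The toxins were also compared directly. Between Mn and MPP+, 0 members were lower in Mn and 1 (Kif23) higher, against 4.22% and 4.88% of all genes. Mn against 3-NPA gave 0 lower and 6 higher in Mn (16.9% and 11.7% of all genes), which were Ccna2, Ccnb1, Cdc25c, Bub1b, Cdc20 and Ube2c. For MPP+ against 3-NPA, 2 were lower in MPP+ (Kif2c and Espl1) and 6 higher (Ccna2, Ccnb1, Cdc25c, Bub1b, Cenpa and Ube2c), against 18.1% and 12.9%. The share of members higher in Mn or MPP+ than in 3-NPA, 14.3% in each, was thus near that over all genes, and the share lower was well below it. These differences ran from 0.39 ± 0.09 for Bub1b to 0.98 ± 0.12 for Cdc25c with Mn, and from 0.37 ± 0.10 for Ube2c to 0.76 ± 0.12 for Cdc25c with MPP+. Because the dose and time of 3-NPA are not known here, these are values side by side and not a comparison at matched exposure. The Kif23 difference was not called when any 1 array was left out. Among the 6 members higher with Mn than with 3-NPA, only Cdc25c was called whichever array was left out. Ccna2, Ccnb1 and Ube2c lost the call without Mn replicate 1, and Ccna2, Bub1b and Cdc20 without Mn replicate 2. Ccna2, Ccnb1, Bub1b and Cdc20 also lost it without either MPP+ array, which enters through the shared estimate of spread. All but Cdc25c lost it without either 3-NPA array. Members outside the 6 also came in, Aurkb and Ccnb2 without Mn replicate 1 and Cks1b without Mn replicate 2. For MPP+ against 3-NPA, the 2 lower and 6 higher became 0 and 2 without MPP+ replicate 1, 0 and 0 without MPP+ replicate 2 or 3-NPA replicate 1, and 0 and 1 without 3-NPA replicate 2. Without control replicate 1 or 2 the lower count was 3.

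How far each count leaned on single arrays differed between toxins. Leaving out MPP+ replicate 1 or 2 left 0 of the 7 lower calls with MPP+. Leaving out 3-NPA replicate 1 or 2, arrays that enter that comparison through the shared estimate of spread, left 3 (Aurka, Kif23 and Plk1). Leaving out 3-NPA replicate 1 or 2 left 8 lower calls with 3-NPA in each case and 0 higher, and leaving out control replicate 2 left 1 higher call. Aurka, Bub1b, Ccnb1, Cdc20, Cdc25c, Cenpa and Ube2c were lower with 3-NPA without either of its arrays.

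Related gene lists, also written with earlier results known, give the setting. Beside each list stand the shares of all tested genes, 3.16%, 6.47% and 16% lower and 4.50%, 7.47% and 22.3% higher. Of 73 other mitotic genes, 0 were called lower with Mn, 6 (8.22%) with MPP+ and 16 (21.9%) with 3-NPA, and 0, 1 and 8 higher. Fam64a, a regulator of chromosome segregation, fell with MPP+ (-0.54 ± 0.11, limma adjusted p = 0.0293) and 3-NPA (-1.17 ± 0.11, 0.000888), and Oip5, which helps to load Cenpa at the centromere, fell with 3-NPA (-1.71 ± 0.24, 0.00337). The B-type cyclin Ccnb3 (1.27 ± 0.15, limma adjusted p = 0.00163) and Iqgap3 (0.74 ± 0.10, 0.00338) rose with 3-NPA. The second probes of Fam64a (-0.96 ± 0.57 with MPP+ and -1.61 ± 0.57 with 3-NPA) and Iqgap3 (0.30 ± 0.14 with 3-NPA) were not called. Of 14 subunits of the anaphase promoting complex, which Cdc20 activates, 0 were lower with Mn, 2 (14.3%) with MPP+ and 6 (42.9%) with 3-NPA. None was called higher. Among them Anapc2, of the catalytic core, was lower with MPP+ (-0.59 ± 0.10, limma adjusted p = 0.0166) and 3-NPA (-0.48 ± 0.10, 0.0129), and Anapc15 with 3-NPA (-0.88 ± 0.10, 0.0015). Of 19 condensin and cohesin genes, 0, 0 and 2 (10.5% with 3-NPA) were lower and 1, 0 and 3 higher. With 3-NPA the condensin II subunit Ncaph2 was at -1.59 ± 0.10 (limma adjusted p = 0.00025) and sororin (Cdca5) at 0.77 ± 0.09 (0.00171).

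Of 52 DNA replication genes, 0 were lower with Mn, 3 with MPP+ and 16 with 3-NPA, which is 30.8% with 3-NPA beside 31.0% of the members, and 0, 2 and 5 were higher. Thymidine kinase Tk1 was at -1.07 ± 0.09 with 3-NPA (limma adjusted p = 0.000727). So with 3-NPA lower calls were about as frequent among replication genes as among the mitosis genes, and with MPP+ the shares were 5.77% and 16.7%, a difference that was not tested. Of 13 MuvB and DREAM genes, none was called with Mn or MPP+, and 3 were lower (23.1%) and 3 higher with 3-NPA. Of 20 regulators of G1, 2, 3 and 6 were lower (10%, 15% and 30%) and 3, 2 and 7 higher. Cdkn1a, which encodes p21, rose with all 3 toxins on the probe brightest over all arrays, by 2.01 ± 0.13 with Mn, 1.39 ± 0.13 with MPP+ and 2.89 ± 0.13 with 3-NPA (limma adjusted p = 0.00206, 0.00313 and 0.000122). A second Cdkn1a probe gave 0.14 ± 0.12, -0.11 ± 0.12 and 0.28 ± 0.12 and was not called, so the probes disagreed. The first probe was the brighter only through the treated arrays: it read 0.49 and 0.29 in control, where the second read 1.78 and 1.77. Cdkn2c, which encodes the p18 inhibitor, was lower with each toxin (-0.73, -0.88 and -1.70, each ± 0.11, limma adjusted p = 0.0157, 0.00627 and 0.000278).

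**Figure D4:**
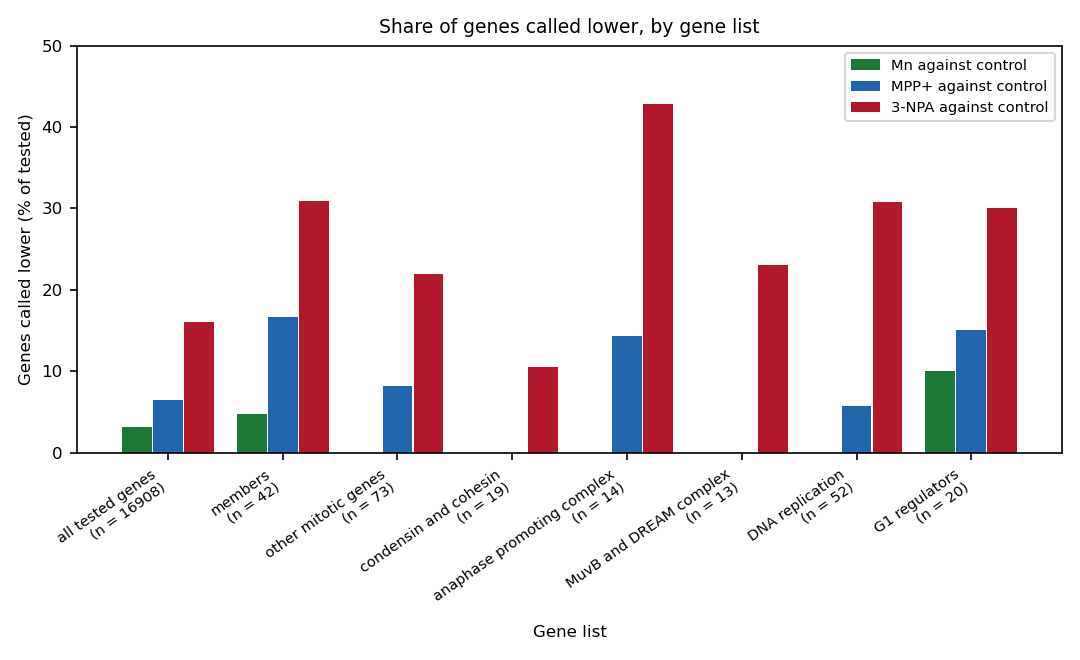
Share of tested genes called lower than control (bars, % of the genes of each list, limma adjusted p under 0.05) for all tested genes, the members and 6 related lists under Mn, MPP+ and 3-NPA. With 3-NPA the members (31.0%) and the DNA replication genes (30.8%) stand at nearly the same height, above all genes (16%).

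Markers of other cell types were measured beside the members. The summed linear level of the 9 neuronal markers on the array, relative to the 75th percentile, was 1.66 to 1.74 in control, 2.05 to 2.75 with Mn, 2.25 to 2.41 with MPP+ and 4.29 to 4.79 with 3-NPA, with Tubb3 at 0.28 and 0.37 (log2) in control and 2.17 and 2.03 with 3-NPA, and with Snap25, Syt1 and Stmn2 well above background on no array. Map2, the other neuronal marker well above background on all 8 arrays, went the other way, by -0.93 ± 0.23 with Mn, -0.71 ± 0.23 with MPP+ and -0.80 ± 0.23 with 3-NPA (limma adjusted p = 0.0644, 0.0911 and 0.0349). That of the 6 fibroblast and pericyte markers was 1.5 to 1.71 in control, 2.30 to 2.34 with Mn, 1.41 to 1.48 with MPP+ and 3.11 to 3.28 with 3-NPA, with Col1a1 and Pdgfrb well above background on all 8 arrays. Col3a1 of the same list, named after its values were seen, fell with MPP+ (-1.90 ± 0.15, limma adjusted p = 0.00229) and 3-NPA (-1.98 ± 0.15, 0.000505), against the 3-NPA sum. The 6 progenitor markers summed to 11.3 to 13.0 in control, 20.5 to 21.2 with Mn, 15.0 to 15.7 with MPP+ and 14.8 to 15.5 with 3-NPA. The brightest probes set such sums, here Vim and Nes. Vim read 3.05 and 2.70 (log2) in control and 3.80 and 3.92 with Mn, and Nes 2.21 and 2.23, then 2.70 and 2.59. Sox2 and Pax6 of that list were well above background on no array. Of 6 microglia markers, 4 were well above background on all 8 arrays, of 6 astrocyte markers 1, and of 6 oligodendrocyte markers 0, and their sums ran from 0.104 to 0.603 over all arrays. The part of these shifts in the changes of the mitosis genes was not tested.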

How the data were processed

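Per the file headers, the deposited spot intensities came from Agilent Feature Extraction 11.5.1.1 as background-subtracted and detrended processed signals with no normalization between arrays. The deposited value table held log2 values whose columns correlated at 0.9966 or more with the log2 processed signal of their arrays (column medians -3.99 to -4.38), so its scale was taken as log2 with no change of direction. How the authors centred that table is not given in the sources used here.

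Outlier spots were left out, the log2 signals of a probe were averaged, and each array was set to its 75th percentile. A probe passed (19460 did) where, in some group, more than 0.5 of its spots cleared background on each of the 2 arrays, and each gene took its brightest probe (16908 genes). Group means were fitted to the 8 arrays together with empirical Bayes moderation (limma 3.58.1, R 4.3.3, with 4 residual and 2.06 prior degrees of freedom). The fit was also run on data simulated from its own variance model, which checks the code and cannot show how well that model suits these arrays. The number of arrays limits the precision.

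The members, lists and motifs were chosen with earlier results of these data known. Values on each array are given for the 16 called members with the smallest p and 4 others that complete a complex or pair of paralogs, and up to 4 genes of each other list by smallest p are named. Alternatives covered background correction, scaling, filters, probe choice, variance models, sets of arrays, the replicate number as a block and leaving out each array. Probe positions are those of rn4 in the files, and promoters are RefSeq's on GRCr8. One gene that the naming rule picked is not reported here.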

Additional observations from a re-analysis of the deposited data

How the results depend on the processing

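No change named for a called member reversed under the alternatives: of 537 values over 24 calls, 398 kept the call and 139 lost it. Many alternatives changed only the variance model, the filter, the block, the threshold or the arrays of another group, and left the log2 change as it was. A reversal was not possible there, so its absence says nothing about those settings. The member counts (lower and higher against control) were 2 and 0 with Mn, 7 and 0 with MPP+, and 13 and 2 with 3-NPA. Lower calls with Mn were 4 with normexp, 6 with no filter on dim probes or one on all 8 arrays, 7 with trend and robust variances (1 higher), and 0 with median scaling, array weights, only the 4 arrays of the pair or the 6 without 3-NPA. Those with MPP+ were 3 with median scaling (1 higher) or 6 arrays and 0 with 4 arrays, and 1 rose with the filter on all 8 arrays or trended variances. The filter on all 8 arrays added lower calls of Cdc20, Cenpa, Mad2l1 and Plk1 with Mn and of Kif2c with MPP+. It also added lower calls of Cks2, Kif23 and Mad2l1 with 3-NPA. Higher calls with 3-NPA were 5 with quantile normalization, where Bub3, Cdk1 and Mki67 were gained, and 1 with median scaling or the mean over probes. A change of at least 2-fold left 0 calls everywhere except 1 lower with 3-NPA. For Mn against MPP+, 1 was lower with normexp and 3 higher with normexp, the filter on all 8 arrays or trended variances, and 0 higher with median scaling, no filter, array weights, 4 or 6 arrays. For Mn against 3-NPA, 1 was lower with trended variances and 10 higher with median scaling, 2 with no filter and 3 with 4 arrays. For MPP+ against 3-NPA, the lower calls were 6 with quantile normalization, 4 with the filter on all 8 arrays, 5 with trended variances, 7 with array weights and 0 with median scaling or no filter. The median member change was -0.0214 (Mn), -0.1205 (MPP+) and -0.2983 (3-NPA) with median scaling, and -0.2776 (3-NPA) with the mean over probes.

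With each array left out in turn, lower and higher calls ran from 0 to 1 and 0 to 0 (Mn), 0 to 9 and 0 to 1 (MPP+), 8 to 16 and 0 to 2 (3-NPA), 0 to 0 and 0 to 0 (Mn against MPP+), 0 to 1 and 1 to 6 (Mn against 3-NPA), and 0 to 3 and 0 to 6 (MPP+ against 3-NPA). The median member change ran from -0.141 to -0.0414 (Mn), -0.3251 to -0.164 (MPP+) and -0.3036 to -0.1549 (3-NPA).

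With the replicate block, the lower calls were 1 with Mn, 5 with MPP+ and 13 with 3-NPA, where Ect2 was lost and Ndc80 gained. With MPP+, Ccnb1, Cdc20 and Pttg1 were lost and Ndc80 gained, and Kif23 was no longer called between Mn and MPP+ (0 higher). Deviations of same-numbered arrays correlated at 0.5 between Mn and 3-NPA, and at -0.024 to 0.098 in the other pairs of groups. The numbers were not taken to pair the arrays, and whether Mn and 3-NPA arrays of the same number belong together was not tested. The causes of these differences were not tested. The number of arrays limits precision, and every tested member probe was well above background on all 8 arrays.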
